A study of Mus musculus with 32 samples.

Results

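The comparison described here set the lungs of mice that had received a scrambled oligonucleotide against the lungs of mice that had received none. It used 16 of the 32 libraries of the series, all from C57BL/6 mice at postnatal day 14. Libraries were chosen by their treatment label alone. On one side were 4 libraries labelled Scrambled 1 and 4 labelled Scrambled 2, from pups injected intraperitoneally with 10 mg/kg on days 1 and 3. On the other side were 4 libraries from pups injected on the same days with nuclease-free water at 10 µl/g, the solvent of both oligonucleotides, and 4 from untreated pups. The contrast was the mean of the 2 oligonucleotide groups minus the mean of the 2 other groups, with equal weights. Injection itself was thus shared by the oligonucleotide and water groups and was absent only from the untreated group. Lungs were perfused with saline buffer and RNA of the whole organ was sequenced after polyA selection in a stranded protocol. No label ties a library to a litter or names the animal behind it, so the p-values measure the spread between these libraries. No allele or transgene is named for any group.

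AntagomiRs are chemically modified single-stranded oligonucleotides that pair with a microRNA and block it. Those used here were LNA inhibitor probes, in which locked sugars raise the strength of pairing. A scrambled probe has no intended target and serves as the control for the oligonucleotide as a substance. Oligonucleotides of this class enter cells mostly by endocytosis, through scavenger receptors among others, and endosomal and cytosolic sensors of foreign nucleic acid are a known route of response to them. At day 14 the mouse lung is in the phase of alveolarisation, when septa rise from the walls of the airspaces, elastic and hyaluronan-rich matrix is laid down, and the capillary bed and the flat alveolar type 1 epithelium spread.

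The 16 libraries held 7918537 to 11417785 exon reads. Exon reads, the share of uniquely mapped reads and the share of intron reads did not differ detectably between the sides (exact two-sided permutation test of 8 against 8 libraries, p = 0.238, 0.901 and 0.653). High Xist, the RNA of the inactive X chromosome, was found in 3 of 8 libraries on each side, but in 2 of 4, 1 of 4, 0 of 4 and 3 of 4 libraries of scrambled 1, scrambled 2, water and untreated. Water replicate 3 stood apart by RNA of tissues next to the lung: its skeletal muscle markers summed to 516 CPM (TMM-normalised counts scaled to library size), against at most 49 CPM in the 15 other libraries. Lung identity was plain in each library, with alveolar type 2 markers such as the surfactant protein genes summing to between 13754 and 19982 CPM.

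Of 14179 genes tested, 3 passed an adjusted p of 0.05 (0.0212%), and these 3 were lower with oligonucleotide: Itih5, Prss35 and Egfem1. Their levels with oligonucleotide were 0.802, 0.806 and 0.837 times those without. No gene was called higher (0%). Itih5 encodes a heavy chain of the inter-alpha-trypsin inhibitor family, whose members bind hyaluronan and stabilise it in the matrix. Prss35 encodes a secreted protein of the serine protease family that lacks the usual catalytic serine, and Egfem1 encodes a protein with EGF-like repeats. Without adjustment, 891 genes had a p under 0.05 (6.28%), 456 with an estimate above 0 and 435 below.

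The promoter windows of the 3 genes from RefSeq (build GRCm38.p6, 250 bases before to 50 after a start, plus strand, 5′ to 3′) are shown because these genes moved in one direction. All 3 genes had a window, and Egfem1 had 2. By the coordinates given below, the Itih5 window spans the start of its record in the files. The Prss35 window and both Egfem1 windows begin after the starts of their records. Capitals mark matches on either strand to GGGCGG, known as the GC box, to the letters TATAAA, found near many starts, or to the letters CCAAT, known from the site of the factor NF-Y. Matches do not overlap one another here.
Itih5, chr2:10153293-10153592: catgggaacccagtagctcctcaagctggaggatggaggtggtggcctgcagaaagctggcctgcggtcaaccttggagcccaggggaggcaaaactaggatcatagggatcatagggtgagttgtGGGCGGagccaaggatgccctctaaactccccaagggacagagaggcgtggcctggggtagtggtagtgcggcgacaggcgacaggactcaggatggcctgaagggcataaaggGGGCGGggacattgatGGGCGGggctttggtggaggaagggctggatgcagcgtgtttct
Prss35, chr9:86743383-86743682: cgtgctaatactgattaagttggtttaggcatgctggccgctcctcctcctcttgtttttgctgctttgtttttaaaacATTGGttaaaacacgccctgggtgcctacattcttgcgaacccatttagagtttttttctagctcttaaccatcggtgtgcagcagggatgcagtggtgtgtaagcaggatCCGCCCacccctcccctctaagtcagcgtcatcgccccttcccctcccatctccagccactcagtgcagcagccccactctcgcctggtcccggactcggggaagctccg
Egfem1, first start, chr3:29081537-29081836: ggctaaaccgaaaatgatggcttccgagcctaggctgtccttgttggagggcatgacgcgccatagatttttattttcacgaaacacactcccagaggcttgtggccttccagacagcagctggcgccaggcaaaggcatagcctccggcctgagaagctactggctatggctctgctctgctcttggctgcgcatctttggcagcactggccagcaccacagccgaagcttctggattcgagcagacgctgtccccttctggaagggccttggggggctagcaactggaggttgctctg
Egfem1, second start, chr3:29082281-29082580: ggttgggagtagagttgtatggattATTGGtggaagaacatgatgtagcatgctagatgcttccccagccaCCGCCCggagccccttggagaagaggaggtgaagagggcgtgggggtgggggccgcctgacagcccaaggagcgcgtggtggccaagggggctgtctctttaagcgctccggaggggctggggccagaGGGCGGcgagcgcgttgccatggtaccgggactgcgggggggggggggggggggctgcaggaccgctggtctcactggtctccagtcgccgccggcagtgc
The Itih5 window held 3 GC boxes, the Prss35 window 1 GC box and 1 CCAAT match, the first Egfem1 window none of the motifs, and the second 2 GC boxes and 1 CCAAT match. Among all 32851 windows of this length, 35.7% held the GC box, 13.6% the letters TATAAA and 37.4% the letters CCAAT. These matches are a description of the letters in the windows.

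Itih5 (chromosome 2, 10153536 to 10256529 as the files give it, gene ID 209378) was measured at 43.9, 46.5, 41.3 and 43.6 CPM with scrambled 1 and at 59.1, 58.0, 67.1 and 56.0 CPM with scrambled 2. It was at 51.5, 69.4, 66.4 and 59.5 CPM with water and at 68.0, 67.9, 58.8 and 70.6 CPM in untreated lungs. The scrambled 1 libraries lay below all 12 others, whereas the scrambled 2 libraries lay within the range of the groups without oligonucleotide. The means were 51.9 ± 9.34 CPM with oligonucleotide and 64.0 ± 6.68 CPM without (SD, n = 8 each), which on the log2 scale is a difference of -0.32 (SE 0.0548, 95% interval -0.43 to -0.21, adjusted p = 0.0452 in the edgeR quasi-likelihood test).

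Prss35 (chromosome 9, 86743240 to 86758443, gene ID 244954) stood at 73.1, 89.4, 85.0 and 88.0 CPM with scrambled 1, and at 113, 100.4, 100.3 and 123 CPM with scrambled 2. With water it was at 115, 109, 109 and 101 CPM, and in untreated lungs at 124, 146, 118 and 133 CPM. Scrambled 1 was again below all other libraries, and scrambled 2 overlapped water while 3 of its 4 libraries lay below the untreated range. The means were 96.6 ± 16.2 CPM with oligonucleotide and 119 ± 14.6 CPM without (SD, n = 8 each), or -0.31 on the log2 scale (SE 0.0548, adjusted p = 0.0452 in edgeR).

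Egfem1 (chromosome 3, 29080745 to 29691058, gene ID 75740) was at 88.1, 100.1, 80.5 and 93.9 CPM with scrambled 1 and at 109, 112, 105 and 106 CPM with scrambled 2. Without oligonucleotide it was at 126, 122, 108 and 114 CPM with water and at 124, 113, 109 and 128 CPM in untreated lungs. The scrambled 1 libraries were lowest and 2 of the scrambled 2 libraries fell below the range without oligonucleotide. The means were 99.3 ± 10.9 CPM and 118 ± 7.77 CPM (SD, n = 8 each), or -0.26 on the log2 scale (SE 0.0466, adjusted p = 0.0478 in edgeR). Only 51.5% of its exon reads mapped uniquely, and on unique exon reads the log2 fold change was -0.31 with an edgeR adjusted p of 0.0722. On the authors' length-scaled TPM values, over the 16 libraries, Prss35 (73.2 ± 12.7) was the most abundant of the 3, ahead of Egfem1 (38.3 ± 5.23) and Itih5 (19.0 ± 3.51).

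**Figure D1:**
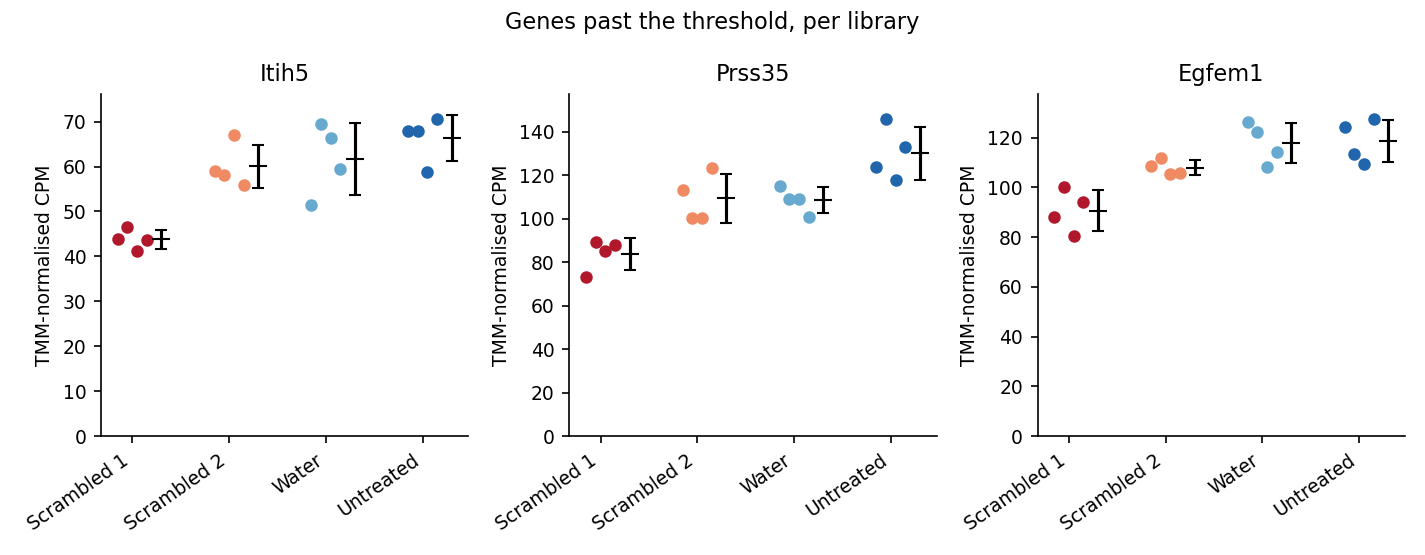
TMM-normalised CPM of Itih5, Prss35 and Egfem1 in each of the 16 libraries (points), with the group mean and SD (bars, n = 4), on axes that start at 0. Scrambled 1 is the lowest group for all 3 genes, and scrambled 2 lies nearer to water.

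None of the 3 calls remained without the scrambled 1 group, or without the untreated group. With scrambled 1 alone against the mean of water and untreated, 35 of the 14179 genes passed (0.247%), 17 higher and 18 lower. Unadjusted p was under 0.05 for 1456 genes (10.3%). With scrambled 2 alone, edgeR called 0 genes (0%), and 722 had an unadjusted p under 0.05 (5.09%). Both contrasts share the water and untreated libraries. Both oligonucleotides against water alone gave 0 calls, and against untreated lungs alone 5 of 14179. Against water alone, Itih5, Prss35 and Egfem1 were at -0.27, -0.18 and -0.25 (edgeR adjusted p = 0.271, 0.573 and 0.196). Against untreated lungs alone they were at -0.37, -0.44 and -0.26 (edgeR adjusted p = 0.0236, 0.00689 and 0.0885). Scrambled 1 and scrambled 2 libraries differed from each other in 29 genes in edgeR (0.205%). Itih5 (log2 fold change of scrambled 1 over scrambled 2 of -0.46, adjusted p = 0.0156) and Prss35 (-0.38, adjusted p = 0.0424) were among them. For Egfem1 this difference was -0.25 (SE 0.0666, edgeR adjusted p = 0.148). The count of 29 genes was not stable: it was 4 with only the 16 libraries, 13 with Xist as a covariate and 0 to 205 without 1 library. Water and untreated lungs differed in 7 genes (0.0494%), none of them among the 20 genes with the smallest p in the pooled contrast. With Xist as a covariate this count was 0. High Xist was found in 0 of 4 water and 3 of 4 untreated libraries, so treatment and Xist status cannot be told apart here.

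The 3 calls also lay close to the threshold. With all libraries kept, they were lost when the spread was estimated from the 16 libraries alone, when the 4 groups were merged into 2 of 8, when Xist entered as a covariate, with limma-voom, or on total gene reads (0 genes each), while DESeq2 called 24. Leaving out 1 library at a time gave 0 to 6 calls.

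Pooling gave smaller SEs, which the larger number of libraries per side brings by design. The SE of the log2 ratio had a median over genes of 0.0661. It was 0.0807 for scrambled 1 alone and 0.0817 for scrambled 2 alone against the same reference, and 0.0940 for scrambled 1 over scrambled 2. The pooled intervals concern the mean of both oligonucleotide groups and do not bound each of them. For 12957 genes (91.4%) the 95% interval of the pooled contrast lay wholly within a 1.5-fold change in either direction, and for 9574 (67.5%) within a 1.2-fold change. The estimate itself was beyond 1.5-fold for 111 genes and beyond 2-fold for 19. The median over all genes was -0.0029, and 48.4% of estimates were above and 51.6% below 0.

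The 17 genes next in order of p after the 3 called genes did not pass (edgeR adjusted p 0.112 to 0.255) and those named are given as values. Together with the called genes they form the 20 genes with the smallest p, 13 with an estimate above 0 and 7 below, and their changes ranged from 1.12-fold to 1.76-fold. For 18 of the 20 the sign was the same for each oligonucleotide against each of the 2 references, the exceptions being Prss35, at 0.01 for scrambled 2 over water, and Slc17a2. These 4 single contrasts share libraries, and the genes were chosen for a small p in their mean.

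Among matrix genes, Tnc, which encodes tenascin C, a matricellular protein of growing septa, came closest to the threshold. It was at 404, 490, 408 and 458 CPM with scrambled 1, at 527, 463, 511 and 532 CPM with scrambled 2, at 562, 523, 569 and 562 CPM with water and at 525, 579, 548 and 702 CPM in untreated lungs. Of the 8 oligonucleotide libraries, 6 lay below the lowest library without oligonucleotide. The log2 fold change was -0.27 (SE 0.0539, edgeR adjusted p = 0.112), and 85.3% of its reads were unique.

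H2-Ob, a chain of the class II-like molecule of B cells that modulates peptide loading, was at 19.2, 22.0, 18.8 and 19.2 CPM with scrambled 1 and at 16.5, 16.8, 17.1 and 16.6 CPM with scrambled 2. It was at 18.3, 14.7, 14.0 and 18.5 CPM with water and at 11.5, 14.2, 13.5 and 11.2 CPM in untreated lungs. The scrambled 1 libraries were above all others, and the scrambled 2 libraries lay within the range of water and above the untreated lungs. The means were 18.3 ± 1.91 CPM with oligonucleotide and 14.5 ± 2.71 CPM without (SD, n = 8 each), or 0.34 on the log2 scale (SE 0.0733, edgeR adjusted p = 0.130).

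Ggn, a gene best known from male germ cells, had the lowest level of the 20. Its 8 oligonucleotide libraries ranged from 1.85 to 2.41 CPM and the other 8 from 0.890 to 1.59 CPM. The ranges do not overlap, but each library held only 8 to 23 of its reads, and the log2 fold change was 0.78 (SE 0.171, edgeR adjusted p = 0.131). Non-overlap with higher values in the oligonucleotide libraries was found for 3 of 14179 genes (0.0212%), Ggn, Palb2, a partner of BRCA2 in DNA repair, and Slc7a4. Non-overlap with lower values was found for 1 gene (0.00705%), Srek1ip1. None of these 4 passed the threshold.

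Slc17a2, a member of the phosphate transporter family, had an unequal pair of values behind its pooled estimate. It was at 3.23, 3.21, 2.62 and 2.56 CPM with scrambled 1, below the other 12 libraries, and at 6.69, 6.12, 5.40 and 7.93 CPM with scrambled 2. Water libraries were at 6.57, 7.10, 6.04 and 9.01 CPM and untreated ones at 6.15, 6.68, 6.44 and 4.00 CPM. The pooled log2 fold change was -0.57 (SE 0.127, edgeR adjusted p = 0.137), made up of -1.15 for scrambled 1 alone and 0.013 for scrambled 2 alone. The difference between the oligonucleotides was -1.17 (SE 0.189, edgeR adjusted p = 0.00827).

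Other genes of the 20 had closer estimates for both oligonucleotides. Kcnh1, a voltage-gated potassium channel, was at 31.6 ± 2.71 CPM with and 24.9 ± 3.71 CPM without oligonucleotide, with 7 of 8 libraries above the highest of the other side. Its log2 fold changes were 0.27 for scrambled 1 alone and 0.42 for scrambled 2 alone. Etv4, an ETS factor induced by FGF signalling, was at 6.96 ± 0.770 against 9.58 ± 1.83 CPM, with -0.40 and -0.53. Prkce, an isoform of protein kinase C, was at 87.6 ± 2.68 against 78.5 ± 3.68 CPM, with 0.16 and 0.15. Bdkrb2, the B2 receptor of bradykinin, was at 3.04 ± 0.719 against 5.76 ± 2.63 CPM, and here the reference was divided, with means of 3.71 CPM in water and 7.81 CPM in untreated lungs.

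Among the remaining genes of the 20 the estimates were all above 0. Cxcl14 (0.27), a chemokine of fibroblasts and epithelia, and Gltp (0.19), which transfers glycolipids, were further from the reference with scrambled 1 (0.43 and 0.30) than with scrambled 2 (0.11 and 0.09). Neither difference between the oligonucleotides passed the edgeR test (adjusted p = 0.137 and 0.195). Cyp2e1 (0.36), an ethanol-oxidising cytochrome P450, was at 24.3 ± 2.80 against 18.9 ± 2.83 CPM. Fam174b (0.20), Gpr108 (0.24), Tor3a (0.16), Tprgl (0.20) and Aqp5 (0.21) were also among the 20, and of these Tprgl and Aqp5 had only 17.3% and 14.7% of their reads mapped uniquely.

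**Figure D2:**
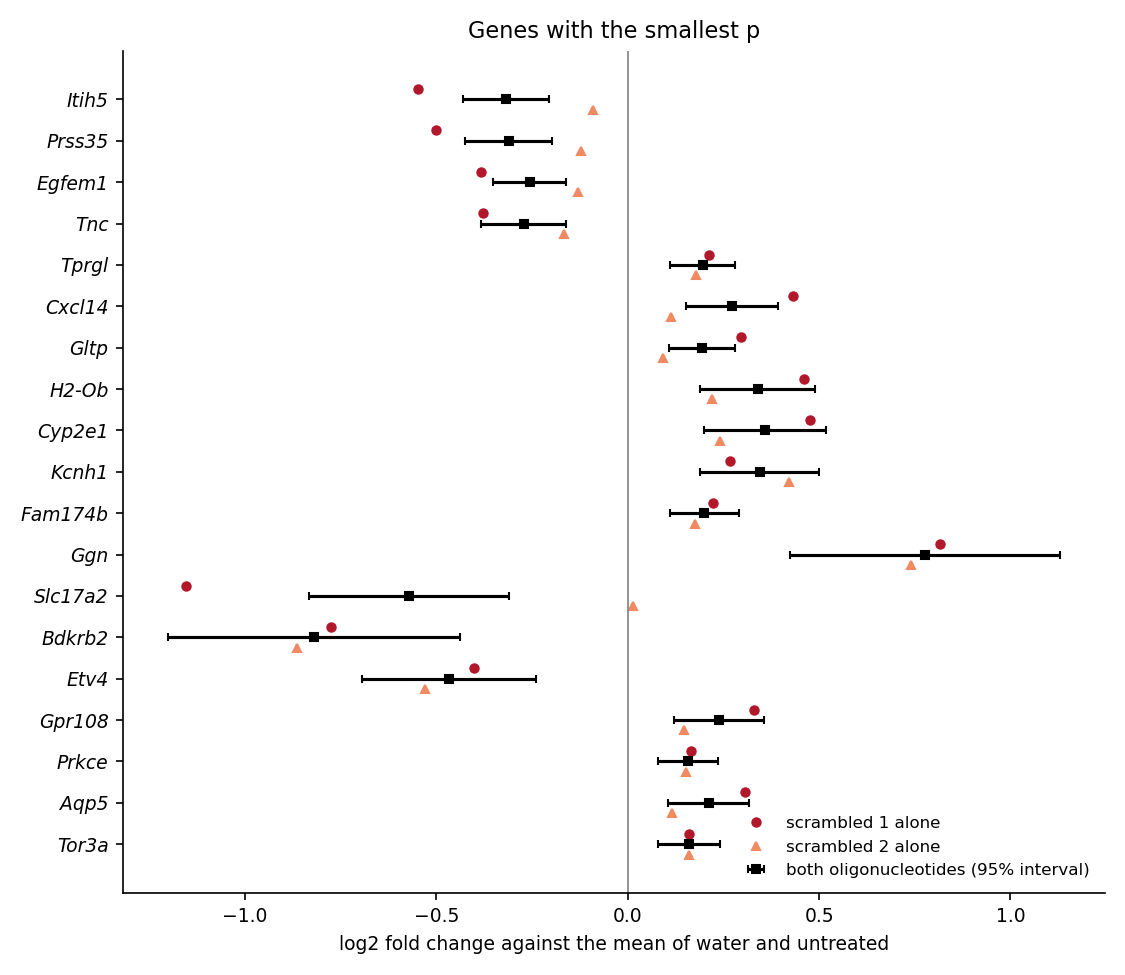
Log2 fold changes of 19 of the 20 genes with the smallest p: squares with bars give the pooled contrast and its 95% interval, circles scrambled 1 alone and triangles scrambled 2 alone, each against the mean of water and untreated. Slc17a2 has its circle at -1.15 and its triangle at 0.013, whereas both symbols of Prkce and Tor3a nearly coincide.

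Intron reads give a second readout that the exon counts did not use. None of 14230 records passed on intron reads in edgeR (0%), and 1017 had an unadjusted p under 0.05. On unique intron reads 3 of 13369 records passed (0.0224%), Hhip, Itpr2 and Slc27a6, which were not among the 20 genes. Of the 20 genes, 19 had enough intron reads, and 14 of these had the same sign as in exons. For Itih5, Prss35 and Egfem1 the intron estimates were -0.12 (SE 0.264), 0.023 (SE 0.329) and 0.026 (SE 0.0869). The Itih5 and Prss35 introns held about 5 CPM, with SEs close to the size of the exon change, whereas Egfem1 introns were deep (204 ± 32.9 CPM with and 201 ± 26.5 CPM without oligonucleotide) and showed a mean change near 0.

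The gene lists described next were written for the tissue and the treatment, with earlier results of these data known. Their counts are thus not independent of these data. Of 55 lists, 1 had a member past the threshold, the hyaluronan list with Itih5. The lists are therefore described by counts and medians, beside the median of -0.0029, the 48.4% of estimates above 0 and the 3.22% of genes above and 3.07% below 0 at an unadjusted p under 0.05 over all genes. Members of a list were measured in the same libraries and can vary together, so a count of members is not a count of separate observations. In bulk RNA, fewer cells of a type and less RNA per cell cannot be told apart.

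Receptors and adaptors that detect foreign nucleic acid showed small estimates. All 26 genes of this list were tested, 0 had an unadjusted p under 0.05, 17 lay above 0, and the median was 0.011. All 26 intervals lay within 1.5-fold. Tlr9, the endosomal receptor for CpG DNA, had the lowest estimate (-0.15, interval -0.58 to 0.28) at 2.32 ± 0.930 CPM with and 2.62 ± 0.651 CPM without oligonucleotide. Tlr3, the receptor for double-stranded RNA, was at 35.6 ± 2.41 and 34.2 ± 2.44 CPM. Myd88, the adaptor of most Toll-like receptors, was at 36.8 ± 2.99 and 34.8 ± 2.82 CPM, and Unc93b1, which carries these receptors to endosomes, at 56.5 ± 5.87 and 54.3 ± 3.81 CPM.

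**Figure D3:**
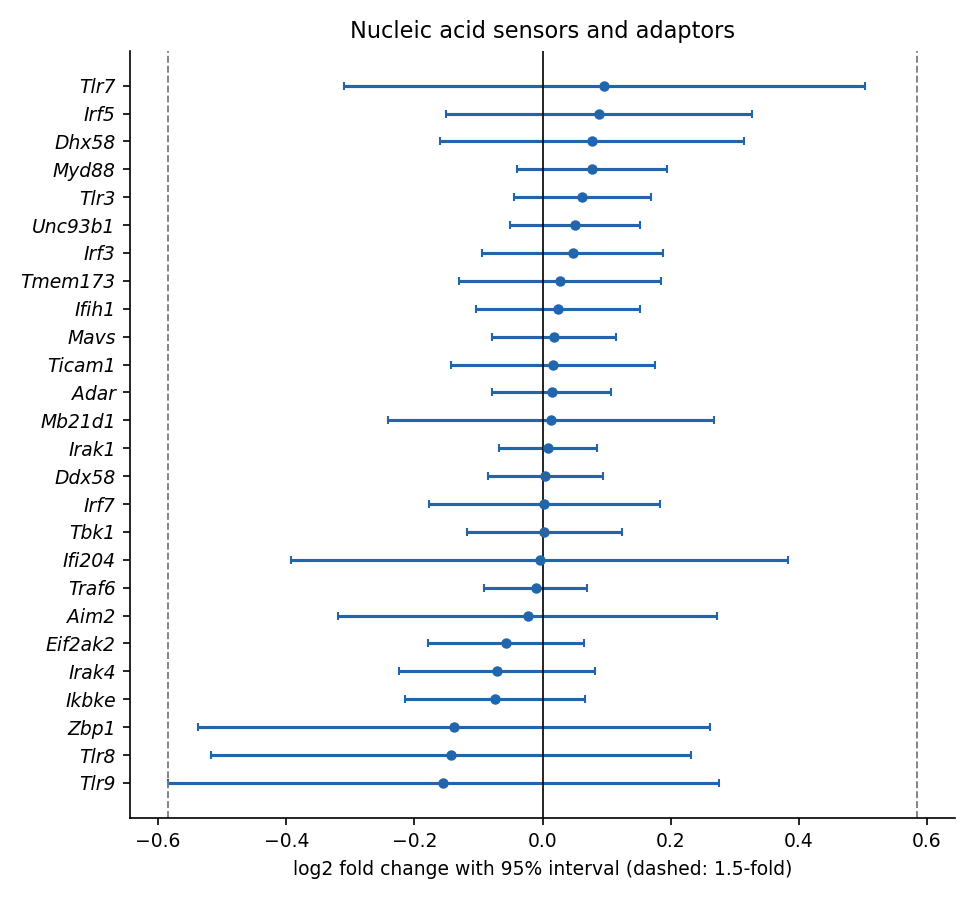
Pooled log2 fold change and 95% interval of the 26 nucleic acid sensors and adaptors, in order of the estimate; dashed lines mark a 1.5-fold change. All intervals include 0 and lie within the dashed lines, the widest being those of the low-level receptors, Tlr9 at the bottom.

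Interferon-response genes had medians of opposite sign for the 2 oligonucleotides. Of 30 tested, 16 lay above 0, with a median of 0.0054. Mx1 and Mx2 had no reads. Against the same reference the median was 0.092 for scrambled 1 alone and -0.13 for scrambled 2 alone, with 24 and 6 of 30 genes above 0, and 0 of the 30 differed between the oligonucleotides at the adjusted threshold. Oas2, an interferon-induced oligoadenylate synthetase, was at 3.56 CPM with scrambled 1, 1.94 CPM with scrambled 2, 3.38 CPM with water and 3.58 CPM in untreated lungs. Iigp1, an interferon-induced GTPase, had the smallest p of the list (log2 fold change -0.16, unadjusted p = 0.0143, edgeR adjusted p = 0.630). Rsad2, or viperin, was at 0.21 and Bst2, or tetherin, at 0.11.

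Antigen presentation genes had medians in the same order, and none differed between the oligonucleotides at the adjusted threshold. The pooled median was 0.047 over 18 genes, but all 18 lay above 0 with scrambled 1 alone (median 0.15) and 8 with scrambled 2 alone (median -0.022). Tapbp, which loads peptides on class I molecules, was at 165 ± 14.5 and 153 ± 9.32 CPM, and H2-Ab1, a class II chain, at 113 ± 14.2 and 103 ± 11.5 CPM. Among 20 inflammatory genes tested, 2 had an unadjusted p under 0.05, Cxcl14 and Icam1, the leukocyte adhesion molecule (260 ± 18.4 against 234 ± 20.9 CPM, log2 fold change 0.15). Il1b, encoding interleukin 1 beta, was at 4.22 ± 0.869 against 3.33 ± 0.634 CPM.

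Genes for the uptake and handling of oligonucleotides had medians near 0. Among 20 uptake receptors the median was -0.021. Ager, the receptor for advanced glycation end products and also a marker of alveolar type 1 cells, was the only one with an unadjusted p under 0.05 (1563 ± 204 against 1335 ± 149 CPM, log2 fold change 0.23, edgeR adjusted p = 0.399). Cd36, a scavenger receptor of capillaries and macrophages, was at 1118 ± 62.3 against 1056 ± 60.7 CPM, and Stab2, a clearance receptor of sinusoidal endothelium, at 4.27 ± 1.04 against 4.92 ± 1.02 CPM. Among 19 nucleases the median was -0.015, with Dnase2a, a lysosomal DNase, at 0.26 (12.0 ± 1.88 against 9.98 ± 1.09 CPM, edgeR adjusted p = 0.612).

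Proteins that bind modified oligonucleotides in the nucleus, the paraspeckle group among them, had a median of -0.040, and 13 of 16 lay below 0. This median was -0.073 for scrambled 1 alone and -0.012 for scrambled 2 alone. Sfpq, a core paraspeckle protein, was at 328 ± 17.1 against 354 ± 20.02 CPM (log2 fold change -0.11, unadjusted p = 0.00863). Of 18 microRNA-processing genes 14 lay below 0, with a median of -0.035. It was -0.065 for scrambled 1 alone (2 of 18 above 0) and -0.018 for scrambled 2 alone (7 of 18). Ddx5, a helicase of the Drosha complex, was at 1467 ± 55.7 against 1588 ± 107 CPM, and Xpo5, which exports precursor microRNAs, at 39.04 ± 3.93 against 43.3 ± 4.18 CPM. All 16 and all 18 intervals of these lists lay within 1.5-fold. Targets of p53, a marker of DNA damage responses, had a median of 0.026 over 19 genes, all with intervals within 1.5-fold, and Mdm2 was at 59.4 ± 3.29 against 56.7 ± 2.90 CPM.

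**Figure D4:**
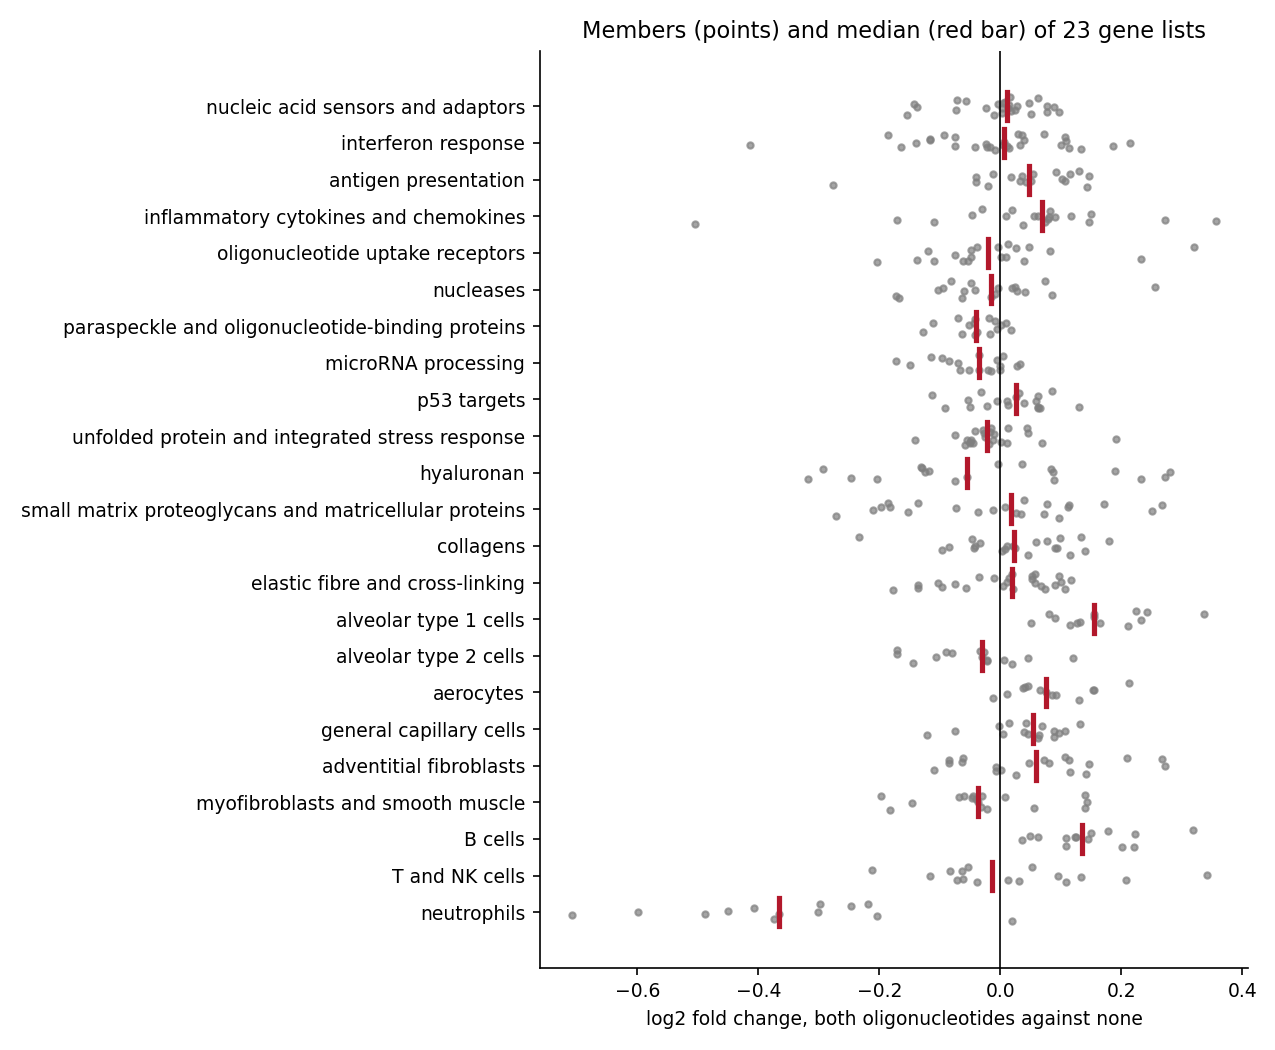
Pooled log2 fold change of each tested member (points, spread vertically for visibility) and the median (red bar) of 23 lists. Medians of the response lists at the top lie near 0, that of alveolar type 1 markers is 0.15 and that of neutrophil markers is -0.37.

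Of the matrix lists, the hyaluronan list held the called gene Itih5. In this list 8 of 19 lay above 0, with a median of -0.054, and 4 had an unadjusted p under 0.05, all below 0. Without 1 library the median ran from -0.087 (scrambled 2 replicate 1 left out) to -0.0033 (scrambled 1 replicate 4 left out). Beside Itih5, the 4 genes under 0.05 included Vcan, encoding the hyaluronan-binding proteoglycan versican (68.1 ± 8.43 against 80.9 ± 4.37 CPM, log2 fold change -0.25, edgeR adjusted p = 0.269). Cd44, the hyaluronan receptor, was another (181 ± 11.6 against 197 ± 8.59 CPM, -0.12). The intron reads of Cd44 had an estimate of the other sign (462 ± 106 against 329 ± 104 CPM, log2 fold change 0.49, unadjusted p = 0.00499, edgeR adjusted p = 0.559). Among 22 small proteoglycans and matricellular genes, 3 lay above and 6 below 0 at an unadjusted p under 0.05. Below were Tnc, Thbs2 and Tgfbi, and above were Prelp, a leucine-rich proteoglycan (165 ± 16.1 against 147 ± 12.3 CPM), and Cilp.

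Thbs2, encoding thrombospondin 2, had group means of 93.2 CPM with scrambled 1, 118 CPM with scrambled 2, 113 CPM with water and 130 CPM in untreated lungs. Tgfbi, a matrix protein induced by TGF-beta, was at 431 CPM with scrambled 1 and at 557, 562 and 562 CPM in the same 3 other groups. Both differed between the oligonucleotides (edgeR log2 fold change -0.35, adjusted p = 0.0424, and -0.37, adjusted p = 0.0258), and scrambled 2 alone was at -0.04 and -0.01 from the reference.

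The alveolar type 1 markers had estimates above 0 in 14 of 14 genes, 10 of them at an unadjusted p under 0.05, with a median of 0.15 and the largest at 0.34. Their median was similar for scrambled 1 alone (0.16) and for scrambled 2 alone (0.15). Aqp5, a water channel, Emp2, a tetraspan membrane protein (log2 fold change 0.15), Spock2, a matrix proteoglycan (416 ± 44.8 against 358 ± 45.0 CPM), and Ager, the receptor that marks these cells, had the smallest p, and their adjusted p ran from 0.255 to 0.399. Few of the Aqp5 reads mapped uniquely, as given above. Ager was at 1798, 1555, 1726 and 1291 CPM with scrambled 1, at 1439, 1440, 1407 and 1848 CPM with scrambled 2, at 1550, 1325, 1372 and 1537 CPM with water and at 1153, 1271, 1304 and 1164 CPM in untreated lungs. The untreated lungs had the lowest mean, and the ranges of the groups overlap.

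The summed level of the list was 7134 to 8662 CPM with oligonucleotide, 6992 to 8176 CPM with water and 6791 to 7248 CPM in untreated lungs, so water stood between. The median of the list was 0.11 against water alone and 0.25 against untreated lungs alone. All 14 intervals lay within 1.5-fold. Alveolar type 2 markers had a median of -0.030, with 0 of 15 at an unadjusted p under 0.05. In aerocytes, the capillary cells that face the airspace, 12 of 13 markers lay above 0 with a median of 0.075, among them Car4 (129 ± 12.0 against 118 ± 7.07 CPM), Igfbp7, Nckap5 and Emp2, which is in both lists. The aerocyte median was 0.15 against water alone and 0.018 against untreated lungs alone, and 0.13 for scrambled 1 alone and 0.034 for scrambled 2 alone. For scrambled 2 over untreated lungs, 4 of the 13 lay above 0.

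Markers of B cells lay above 0 in 14 of 14 genes with a median of 0.14, 2 of them, Cd22 included, at an unadjusted p under 0.05. This median depended on the reference and on the oligonucleotide: it was 0.00067 against water alone and 0.29 against untreated lungs alone, and 0.26 for scrambled 1 alone and 0.030 for scrambled 2 alone. Cd22, an inhibitory receptor, had group means of 20.8, 16.1, 17.5 and 14.1 CPM with scrambled 1, scrambled 2, water and in untreated lungs, and Cd37 had 26.2, 22.8, 25.4 and 19.6 CPM. The summed level was 265 to 313 CPM with scrambled 1, 210 to 249 CPM with scrambled 2, 225 to 287 CPM with water and 187 to 232 CPM in untreated lungs.

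Neutrophil markers had estimates below 0 in 12 of 13 genes with a median of -0.37, 6 at an unadjusted p under 0.05. Their median was -0.28 against water alone and -0.51 against untreated lungs alone, and Elane had no reads. Cxcr2, the chemokine receptor of neutrophils, was at 2.51 ± 0.874 against 3.45 ± 0.797 CPM, Mmp9 at 4.55 ± 1.92 against 6.27 ± 1.30 CPM and Stfa2l1 at 1.96 ± 0.797 against 2.97 ± 0.367 CPM. Levels were low, and 4 of the 13 intervals lay within 1.5-fold. The summed level was 118 to 158 CPM with oligonucleotide, 115 to 163 CPM with water and 145 to 176 CPM in untreated lungs, and the ranges overlap.

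**Figure D5:**
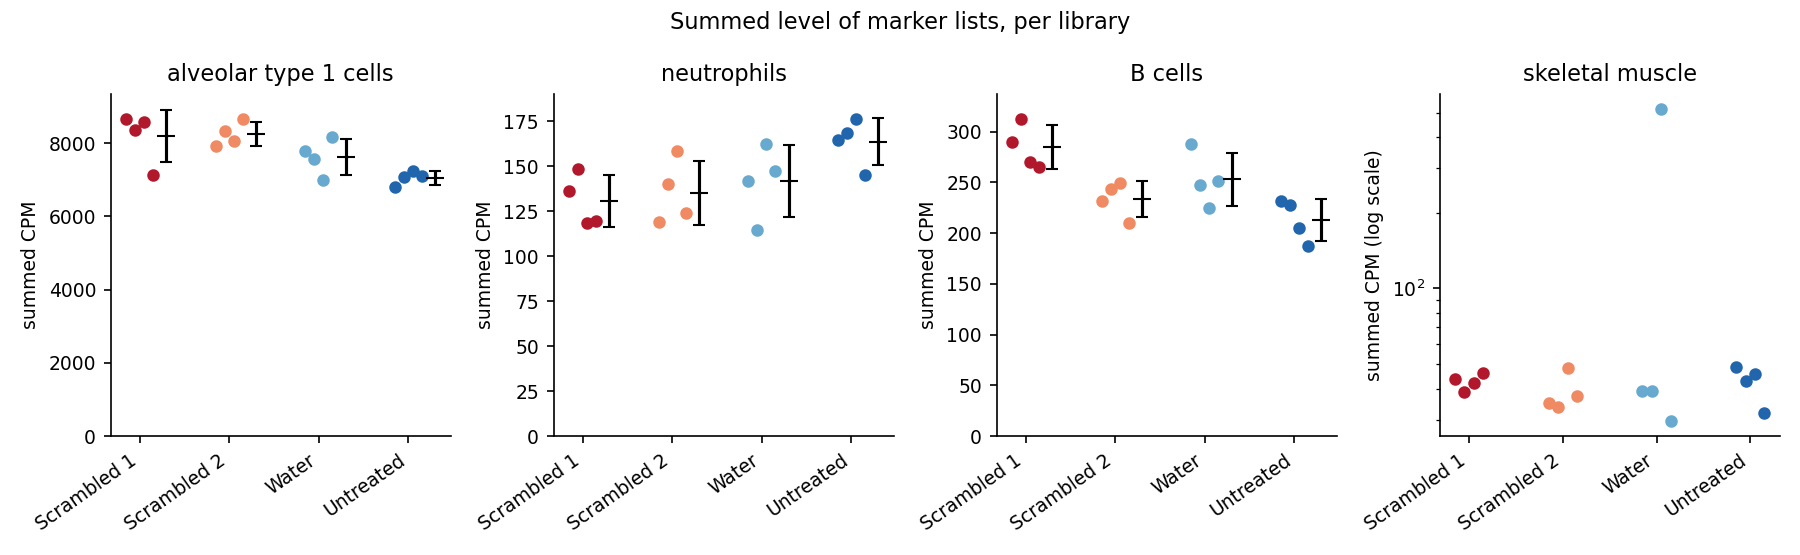
Summed CPM of 4 marker lists in each of the 16 libraries (points), with the group mean and SD (bars, n = 4) in the first 3 panels, which start at 0; the skeletal muscle panel has a log axis and no bars. Water replicate 3 stands at 516 CPM in the muscle panel, and in the alveolar type 1 panel the untreated libraries lie between 6791 and 7248 CPM.

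Adventitial fibroblast markers had a median of 0.060 over 20 genes, which turned sign between the oligonucleotides: it was 0.15 for scrambled 1 alone (15 of 20 above 0) and -0.031 for scrambled 2 alone (8 of 20). It ran from -0.023 without untreated replicate 4 to 0.13 without water replicate 3. In the pooled contrast 4 lay above 0 at an unadjusted p under 0.05. These were Cxcl14, Cilp, Gsn (1312 ± 140.3 against 1184 ± 99.0 CPM) and Sod3, the extracellular superoxide dismutase (208 ± 32.4 against 180 ± 23.6 CPM). Gpx3, a secreted glutathione peroxidase, was at 293 ± 52.6 against 237 ± 25.7 CPM (log2 fold change 0.31, edgeR adjusted p = 0.371). Among 34 growth factors and receptors of alveolarisation the median was 0.031, with Fgf9 at 2.19 ± 0.680 against 3.47 ± 1.202 CPM and Hhip, an antagonist of hedgehog signalling, at 200.1 ± 6.81 against 182 ± 13.9 CPM.

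Several lists moved with water replicate 3. The medians were -1.03 for skeletal muscle, -0.46 for adipose tissue, -0.70 for chondrocytes and -0.14 for fatty acid oxidation, where 20 of 21 genes lay below 0. Without that library they were 0.051, 0.55, -0.20 and -0.0092. Cardiac muscle markers lay below 0 in 15 of 15 genes with a median of -0.49, and of -0.24 without that library, with 0 at an unadjusted p under 0.05. Their sum was 166 to 618 CPM with oligonucleotide and 241 to 790 CPM without. Markers of erythroid cells and platelets lay above 0 in 12 of 14 genes with a median of 0.16, also with 0 at an unadjusted p under 0.05, and summed to 8190 to 17647 CPM with and 7859 to 14101 CPM without oligonucleotide. Without scrambled 1 replicate 4, the library with the highest sum, this median was 0.042. The part of such tissue and blood RNA in the other marker results was not tested. The alveolar type 1 and neutrophil medians were 0.13 and -0.38 without water replicate 3.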

How the data were processed

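RNA from whole lungs was sequenced by the submitters, whose processing notes name bcl2fastq 2.0. The sources used here give no aligner, build or strand setting of the counts. Whether the counts separate reads of overlapping antisense genes is therefore not known. Per the file headers, the deposited files hold counts of exon, intron and gene reads for 46165 records per library, total and unique, and TPM values made by the authors, used here only for levels between genes. Total exon counts of the 20 day-14 libraries (daily saline included for the spread) were fitted in edgeR 4.0.16 under R 4.3.3 (TMM scaling after filterByExpr, robust quasi-likelihood F test, Benjamini-Hochberg adjusted p under 0.05). The fit was also tested on simulated data, in which the groups within each side had the same true means, unlike the groups here. Intervals are 95% t intervals, SEs were derived from the fold change and its F value, and CPM are TMM-normalised, as mean ± SD. DESeq2 1.42.0 and limma 3.58.1 were alternatives. Chi-square statistics per gene between replicates were 2.91 to 11.5, so no library was counted again. The members and lists were chosen with earlier results of these data known. Named were the called genes, then genes of smallest p with at least 1 CPM until 20, and up to 4 members of smallest p of each list described. The non-overlapping genes, Gpx3 and the 3 genes past the threshold on unique intron reads were named after their values were seen. Some genes that this rule would name are not reported here one by one and stay in the counts and medians. Reference windows came from RefSeq. Also computed were alternative filters, scalings, read columns, covariates and libraries left out.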

Additional observations from a re-analysis of the deposited data

Results flagged for a closer look

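Several genes had 1 library apart from the other 3 of its group, by a gap above Dixon's 95% limit for its share of the group's range. This was found in 16 of 256 groups of 4 over 64 genes, and chance marks about 1 in 20. None of these groups belonged to the 3 called genes. The number beside each gene is the gap as a share of the range, after its level in the library that stood apart.

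Scrambled 1 replicate 2 was highest of its group for H2-Ob (22.0 CPM, 0.856). Scrambled 1 replicate 3 was lowest of its group for Cd44 (156 CPM, 0.849). Scrambled 1 replicate 4 was highest of its group for Sfpq (336 CPM, 0.900). Scrambled 1 replicate 4 was lowest of its group for Fam174b (147 CPM, 0.911) and Spock2 (315 CPM, 0.867). Scrambled 2 replicate 1 was lowest of its group for Emp2 (1627 CPM, 0.835). Scrambled 2 replicate 2 was lowest of its group for Myd88 (34.8 CPM, 0.857). Scrambled 2 replicate 4 was highest of its group for Aqp5 (226 CPM, 0.860) and Ager (1848 CPM, 0.925). Scrambled 2 replicate 4 was lowest of its group for Iigp1 (55.7 CPM, 0.843) and Stab2 (2.26 CPM, 0.844). Untreated replicate 2 was highest of its group for Etv4 (12.3 CPM, 0.854). Untreated replicate 4 was highest of its group for Ddx5 (1771 CPM, 0.865). Untreated replicate 4 was lowest of its group for Rsad2 (7.67 CPM, 0.849). Water replicate 2 was lowest of its group for Tnc (523 CPM, 0.844). Water replicate 4 was highest of its group for Icam1 (274 CPM, 0.889).

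Scrambled 1 and scrambled 2 libraries differed from each other for 5 of the genes named, by the edgeR test of these groups. No label ties these libraries to litters, so a probe effect cannot be told apart from other differences between the groups. The log2 fold changes were Itih5 -0.46 (adjusted p = 0.0156), Prss35 -0.38 (adjusted p = 0.0424), Slc17a2 -1.17 (adjusted p = 0.00827), Thbs2 -0.35 (adjusted p = 0.0424) and Tgfbi -0.37 (adjusted p = 0.0258), all lower with scrambled 1.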

How the results depend on the processing

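For the pooled contrast, 3 genes passed with edgeR, and the count under other settings was 24 with DESeq2 (13 above 0), and 0 with limma-voom, total gene reads, only the 16 libraries, 2 groups of 8, Xist as a covariate, Xist as a covariate without water replicate 3, or glmTreat against a fold of 1.2. It was 2 to 4 with RLE scaling, both filters, unique exon reads, all 32 libraries and the intron share as a covariate. With a replicate block it was 0, against 18 for scrambled 1 over scrambled 2 and 6 for water over untreated. No label says that equal numbers pair the libraries, and the values do not settle it. The deviations of same-numbered libraries correlated from -0.250 to 0.496, 9 of 24 pairs above 0.1. Of the 16 libraries, 7 correlated best with their own number. Alternatives chosen after seeing the data gave 35 calls with scrambled 2 left out, 0 with scrambled 1 or untreated left out, and 5 with water left out.

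Leaving out 1 library gave 0 to 6 calls, with 0 in 7 of 16 cases (scrambled 1 replicates 1 and 3, scrambled 2 replicates 1 and 2, water replicate 2, untreated replicates 2 and 4). The count was 1 without scrambled 2 replicate 3 or 4 or water replicate 1 or 3, 5 without scrambled 1 replicate 4 and 6 without scrambled 1 replicate 2. Itih5 passed in 7 of the 16 cases and in 9 of 19 other alternatives, Prss35 in 6 and 9, and Egfem1 in 4 and 5, and their direction held in all of these.

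Scrambled 1 over scrambled 2, with 29 calls, gave 63 with DESeq2, 145 with limma-voom, 4 with only the 16 libraries, 17 with all 32, 13 with Xist and 51 with the intron share as a covariate. Without 1 library it gave 0 to 205 calls: 0 without scrambled 1 or scrambled 2 replicate 1, 1 without scrambled 1 replicate 3 or 4, 3 and 6 without scrambled 2 replicates 3 and 2, 14 without untreated replicate 3, 15 without water replicate 1 and 205 without scrambled 2 replicate 4. Water over untreated, with 7 calls, gave 23 with DESeq2, 0 with Xist as a covariate and 1 to 9 without 1 library (1 without water replicate 1, 2 without water replicate 3 or untreated replicate 2, 3 without water replicate 2 or untreated replicate 3, and 4 without untreated replicate 1, scrambled 1 replicate 3 or scrambled 2 replicate 1 or 2). Unique intron reads gave 3 calls (Hhip, Itpr2 and Slc27a6) where total intron reads gave 0. The cause was not tested in any of these.

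Of 2222 values of named genes under alternatives, 8 changed direction. These were Slc17a2 (0.013) and Unc93b1 (-0.060) with scrambled 1 left out, Oas2 (0.023) with scrambled 2 left out, Cd37 (-0.061) with untreated left out, Tlr3 (-0.0034), Tlr9 (0.062) and Cilp (-0.012) with water left out, and Cd44 (0.052) on total gene reads. Of 1925 list medians under alternatives, 234 had the other sign and 11 moved beyond the spread of replicates. Without 1 library, the alveolar type 1 median ran from 0.13 to 0.18 and the neutrophil median from -0.41 to -0.26. Precision differed between lists: 4 of 13 neutrophil and 7 of 14 club cell intervals lay within 1.5-fold, against 91.4% over all genes.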
